A study of Mesocricetus auratus with 36 samples.

Results

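Described here are the 81 genes whose median level in torpid golden hamsters was at least 2 CPM (a gene's counts divided by all counts of its library, times 1e+06) and at least 1.5 times the median of each of the other 5 groups. The tables listed 32340 genes, of which 13541 had a torpid median of 2 CPM or more, and 88 of these (0.65%) met the rule. The limit of 300 genes was not reached. Of 8 genes set aside from the outset, 7 met the rule: Fos (47.6 CPM against 8.83 in the next highest group), Jun, Junb, Egr1, Zfp36, Csrnp1 and Akap8l (127 against 57.1). The eighth, Nr1d1, did not, at 119.4 CPM in torpor and 100.1 on long photoperiod. Because torpid levels chose the 81 genes, their height in torpor is described and not tested, and no count below is support for it.

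The tissue was a laser-captured strip of ependyma from the mediobasal hypothalamus of 36 male hamsters (Mesocricetus auratus), 6 animals a group. Tanycytes, for which the strip is enriched, are elongated glia of the third ventricle that touch both cerebrospinal fluid and blood vessels. Long photoperiod animals had 14 h of light at 22 °C and were 8 months old by their labels, although the protocol also has animals of this group taken before the others changed day length. The other 5 groups had 10 h of light at 8 °C. The pre-hibernation group spent 4 weeks there (4 months old) and the late pre-hibernation group 8 to 12 weeks, not yet torpid (6 months). Torpid animals, after 3 torpor-arousal cycles, were taken 13 h into a bout, and interbout euthermia animals, after as many cycles, 23 h after warming (both 6 months). Refractory animals had stopped hibernating by themselves and were taken after about 20 weeks (8 months). All carried an implanted abdominal temperature logger. Torpid animals thus shared light, ambient temperature, age and number of cycles with interbout animals. They differed from them in being in a bout and in the time since entering their state (13 h against 23 h).

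In torpor, body temperature and metabolic rate are lowered for hours to days, and RNA synthesis, processing and decay all slow in cold tissue. Many transcripts that react to stress or to arousal are short-lived and respond within minutes to signals, among them immediate early genes and phosphatases that damp MAP kinase signalling. Splicing of many genes of splicing factors and their kinases is itself regulated by temperature and stress, with some transcripts held in the nucleus as unspliced forms. A gene's CPM is a share of the library, and in captured tissue more cells that express a gene and more RNA of that gene per cell cannot be told apart.

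The 36 libraries held 5.16 to 28.5 M counts (1e+06) with a median of 22.4 M, and the 6 torpid ones 19.1 to 26.5 M. Genes of ribosomal RNA took under 1% of counts in 33 libraries and more in refractory 4 (41.8%), pre-hibernation 5 (9.28%) and interbout 6 (7.21%), called rRNA-rich below. The 19 tanycyte markers were all detected, with summed levels of 3658 to 5512 CPM in torpid and 1652 to 5434 in other libraries. Rax, a tanycyte transcription factor, had a torpid median of 62.5 CPM (25.7 to 106) against 139 (26.2 to 208) in the other 30. Summed levels of the 13 marker lists (ciliated ependyma, tanycytes, astrocytes, neurons, oligodendrocytes and their precursors, microglia, endothelium, mural cells, choroid plexus, pituitary, erythrocytes, T and NK cells) overlapped between torpid and other libraries, and no marker gene was at 0 in all of them.

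Across the 81 genes the ratio of the torpid median to the next highest group had a median of 1.72 and ran from 1.501 to 9.32, with 21 genes at 2 or more. The next highest group was interbout euthermia for 21 genes, long photoperiod for 18, refractory for 15, pre-hibernation for 14 and late pre-hibernation for 13. The lowest group was long photoperiod for 24 genes, refractory for 19, late pre-hibernation for 15, pre-hibernation for 12 and interbout euthermia for 11. No other group was thus a steady runner-up. Expressed per library, as the median over the 81 genes of the log2 ratio to the median of the 30 other libraries, torpid libraries stood at 0.80 to 1.06 and the others at -0.17 to 0.15. Together the 81 genes took 0.353% to 0.418% of all counts in torpid libraries and 0.137% to 0.235% in the others.

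In 21 of the 81 genes (25.9%) all 6 torpid libraries lay above all 30 others, and 16 of these carry a gene name. Among all 17926 genes that passed the filter on low counts this held for 47 (0.262%). With totals free of ribosomal RNA and mitochondrial genes it held for 9 of the 72 genes that then met the rule. All 81 genes passed the filter on low counts, which their torpid level favours. At the other end, 14 genes had no torpid library above all 30 others, 8 had 1, 5 had 2, 8 had 3, 9 had 4 and 16 had 5. For 26 genes the highest other library was rRNA-rich, refractory 4 in 18 of them. Set against the remaining 27 libraries, 30 of the 81 genes had no overlap (20 named), and 66 of 17926 genes did (0.368%). The rRNA-rich libraries also held low values, which can set the lower end of ranges given below. Ddx5 was at 204 CPM in refractory 4 and at 567 to 955 in the 27 libraries. Wsb1 was at 4.39 CPM in pre-hibernation 5 and at 14.8 to 26.1 in the 27.

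**Figure D1:**
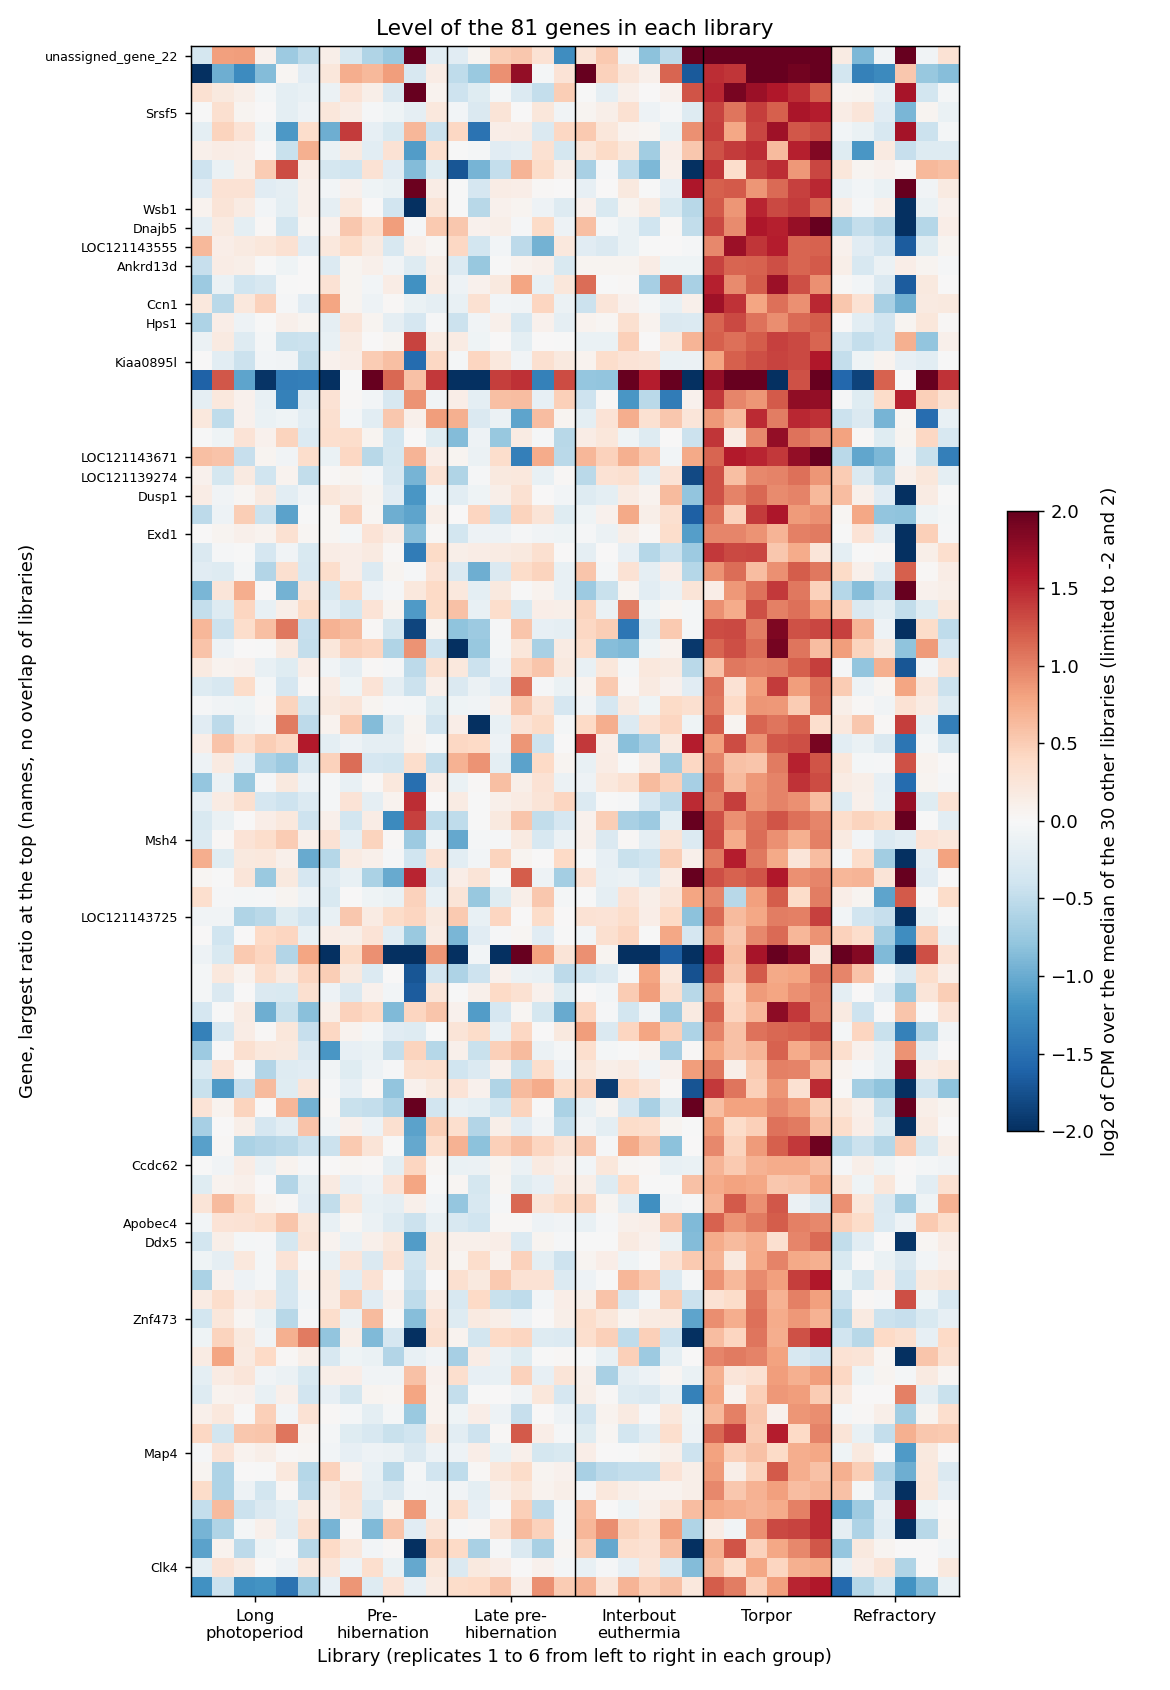
Heat map of the 81 genes (rows, largest ratio at the top) in the 36 libraries (columns, replicates 1 to 6 in each group), coloured by log2 of CPM over the median of the 30 other libraries, with 0.1 CPM added and colours limited at -2 and 2; names are given for the 21 genes with no overlap. The torpid block is red across nearly all rows, and the columns of refractory 4, pre-hibernation 5 and interbout 6 hold single rows as red as torpor beside rows that are blue.

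Messenger RNA splicing was represented by Srsf5 and Pnisr, with ratios above 2, and by Ddx5 and Clk4, with ratios below the median of the set. Srsf5, a serine- and arginine-rich splicing factor, stood at 285, 235, 289, 254, 346 and 333 CPM in torpid libraries 1 to 6. Its level in the other 30 ran from 59.1 to 139 with a median of 111, so the lowest torpid library was well above the highest other one. The torpid median was 2.45 times that of pre-hibernation, the next group (287 against 117 CPM). A gene of no informative name lies across Srsf5 on the opposite strand, and counting did not use strand.

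Ddx5, an RNA helicase that takes part in splicing and transcription, was the gene with the highest level of the 81. It stood at 1328, 1233, 1311, 991, 1567 and 1736 CPM in torpor, and at 204 to 955 with a median of 795 elsewhere. The groups did not overlap, though torpid 4 was only just above the highest long photoperiod library, and the ratio of medians was 1.56. Clk4, a kinase that phosphorylates serine- and arginine-rich splicing factors, gave 50.1, 41.8, 55.7, 43.9, 53.8 and 55.3 CPM against 16.01 to 41.3 (median 32.7). Its libraries did not overlap either, the lowest torpid one lying 1 step above pre-hibernation 3. With a ratio of 1.502 it was at the edge of the rule, and it left the set in 15 of the 36 repeats that leave out 1 library, and under each of the other settings tried.

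Pnisr, a nuclear protein rich in serine and arginine, stood at 119.7, 121, 96.1, 114, 134 and 148 CPM in torpor, 2.30 times the next group. In 27 other libraries it ran from 40.97 to 63.5, but it reached 336 in refractory 4, 203 in pre-hibernation 5 and 159 in interbout 6. The torpid libraries were thus above all but the 3 rRNA-rich ones, whose part in the level of other genes was not tested. Pnisr left the set when group means replaced medians, and it is not on the list that follows. Of the 83 genes on the list of SR proteins, hnRNPs and splicing factors, Srsf5, Ddx5 and Clk4 were the 3 that met the rule. The torpid median was the highest of the 6 groups for 29 genes of that list (34.9%) and the lowest for 24 (28.9%), against 17.4% and 26.7% of all 14197 genes with 2 CPM or more in any group. The list's median ratio was 0.94, beside 0.87 over all those genes. Next in order came Srsf6 (1.36, at 104 CPM), Srrt (1.22) and Hnrnpa2b1 (1.202, at 477 CPM), and at the other end Srsf12 (0.34), Luc7l3 (0.57) and Rbfox2 (0.58) were below another group.

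**Figure D2:**
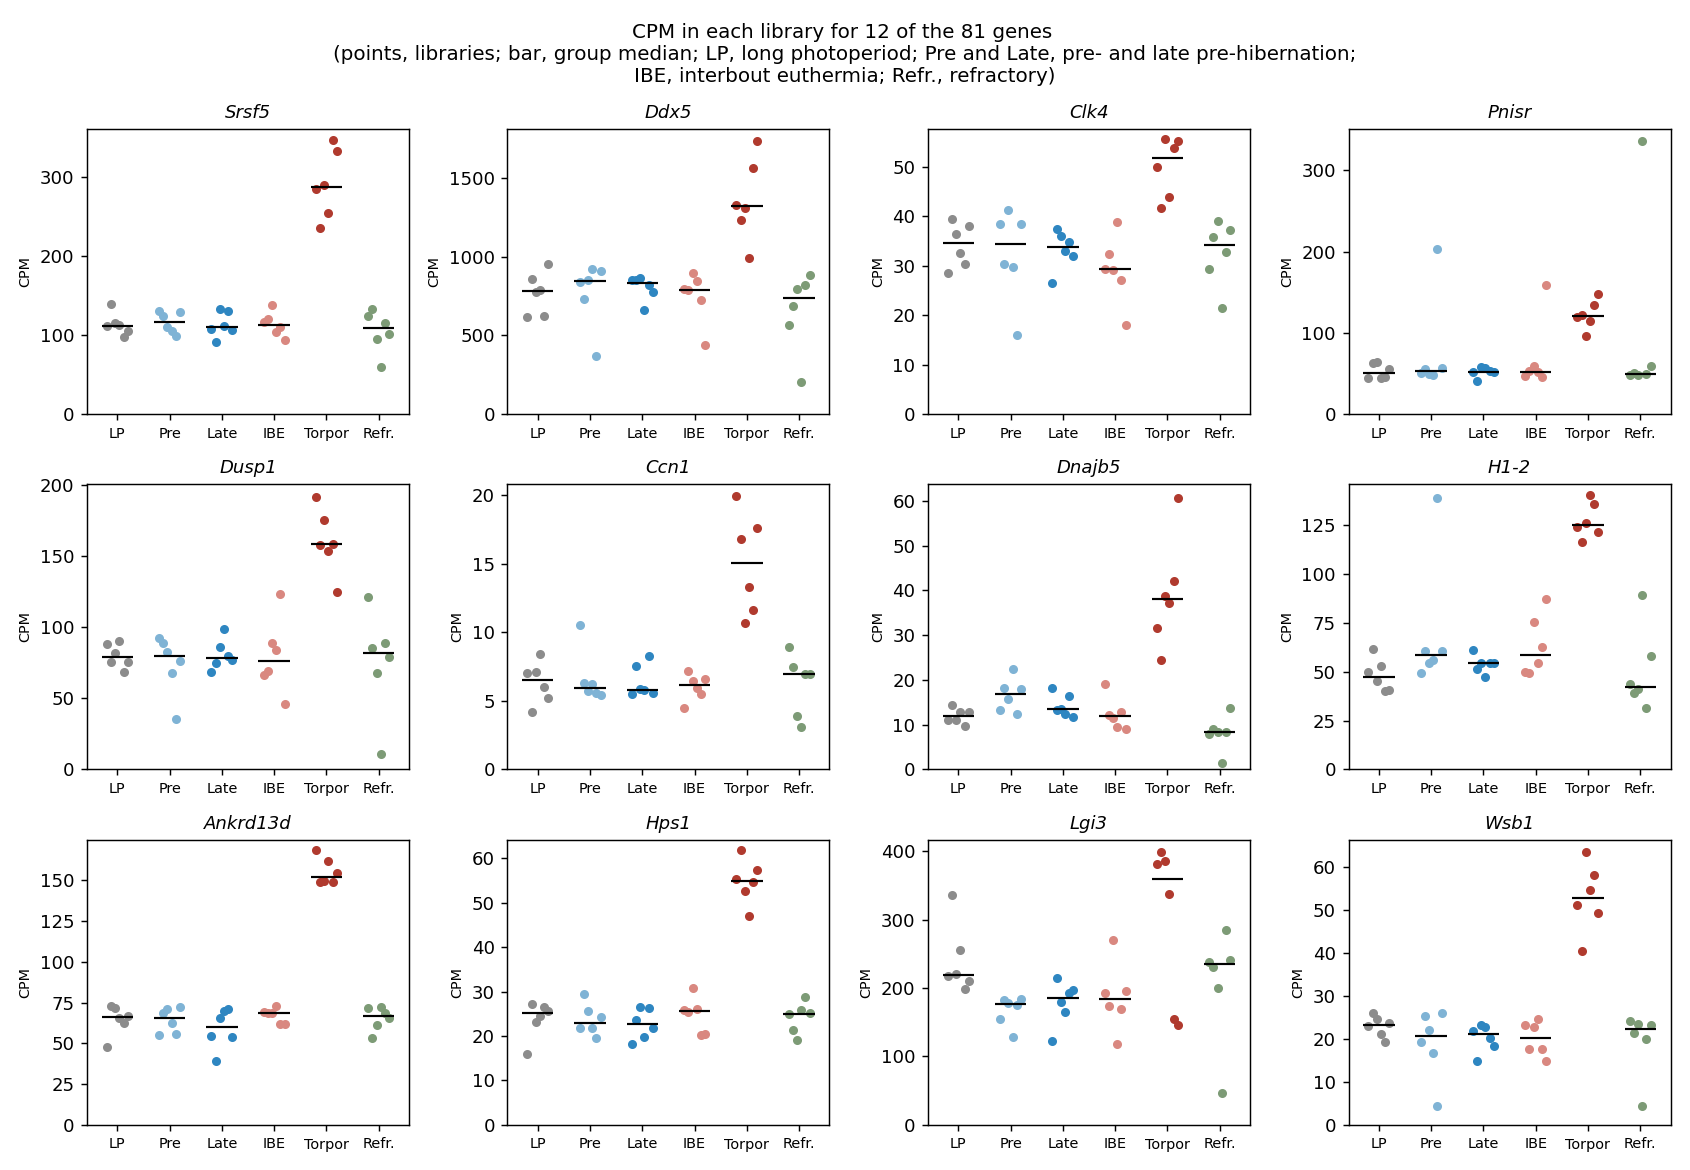
CPM in each library for 12 of the 81 genes, 6 points a group, with bars at group medians and axes from 0. Torpid points stand clear of all others for Srsf5, Ankrd13d, Hps1 and Wsb1, 3 rRNA-rich libraries stand highest or near it for Pnisr, and 2 torpid points lie among the other groups for Lgi3.

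The set also held genes that respond fast to signals. Dusp1, a phosphatase that switches off MAP kinases and a target of glucocorticoids, stood at 191, 158, 176, 153, 159 and 125 CPM in torpor and at 10.7 to 123 with a median of 79.4 elsewhere. Torpid 6 was just above interbout 5, the highest of the others, and the ratio to the next group was 1.93. Of the 12 MAP kinase phosphatase and Sprouty genes with 2 CPM or more, Dusp1 was the one that met the rule, while the torpid median was the highest for 3 and the lowest for 5. Errfi1 (0.43) and Dusp4 (0.55) had the smallest ratios among those 12. On the glucocorticoid response list, which also holds Dusp1, the torpid median was the highest for 9 of 19 genes and the lowest for 3.

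Ccn1, a secreted matrix protein of the immediate early class, gave 20.0, 16.8, 10.7, 13.3, 11.6 and 17.6 CPM in torpor against 3.10 to 10.6 (median 6.10). The groups did not overlap, with torpid 3 barely above pre-hibernation 1. Gem, a small GTP-binding protein that inhibits voltage-gated calcium channels, was at 8.66, 9.44, 9.94, 5.52, 10.5 and 12.9 CPM against 1.52 to 5.80. Torpid 4 fell within the range of the others and the remaining 5 did not. Klf10, a zinc finger factor induced by TGF-beta, was at 63.7, 82.2, 59.3, 43.0, 75.5 and 77.3 CPM against 24.2 to 57.0, again with torpid 4 inside the range of the others. Its ratio was 1.53, and it stayed in the set in 30 of the 36 repeats that leave out 1 library, but not with group means. Of 24 immediate early genes with 2 CPM or more and not set aside, these 3 met the rule. The torpid median was the highest for 7 and the lowest for 6, and the list's median ratio was 0.84. Btg2 (1.32), Atf3 (1.30) and Nr4a1 (1.28) were highest in torpor without meeting the rule, and Ccn2, of the same family as Ccn1, was far below another group (0.25).

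Dnajb5, a cochaperone of the DNAJ family, stood at 31.6, 24.4, 38.7, 37.3, 42.1 and 60.8 CPM in torpor and at 1.36 to 22.4 elsewhere, with no overlap and a ratio of 2.25. Of 35 heat shock and chaperone genes it was the only one to meet the rule, although the torpid median was the highest for 11 and the lowest for 4. After it came Hspb8 (1.15) and Hspa2 (1.14), and Dnajb1 was at 0.66. Gadd45a, a protein of the growth arrest and DNA damage response, was at 7.64, 11.2, 9.04, 11.3, 4.33 and 3.87 CPM. Torpid 5 and 6 lay below the median of the other 30 libraries (4.73), whose range was 1.96 to 10.7. Id1, an inhibitor of helix-loop-helix factors, ran from 11.1 to 25.2 CPM in torpor and from 6.04 to 19.9 in the others. Both had ratios under 1.6 (1.57 and 1.52).

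Hif3a, of the family of hypoxia-inducible factors, had a torpid median of 8.93 CPM (8.44 to 15.0) and a ratio of 1.51, and was higher than that in refractory 4 (19.2). Its 27 other libraries without rRNA-rich ones reached 8.19. Phka1, an alpha subunit of phosphorylase kinase, which activates glycogen breakdown, had a torpid median of 14.7 CPM and a ratio of 1.56. Its lowest torpid library (10.1 CPM) lay within the range of the others (6.55 to 12.7). Phka1 left the set with group means and without the 3 rRNA-rich libraries. The torpid median was the highest for 8 of 21 glycogen genes and the lowest for 3, and Pygl, the liver type of glycogen phosphorylase, had the next ratio (1.18).

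The named genes with large ratios and no overlap also included Ankrd13d, Hps1 and Wsb1. Ankrd13d, which binds ubiquitinated membrane receptors, stood at 168, 149, 149.5, 162, 149 and 154 CPM in torpor and at 39.1 to 73.1 elsewhere, so that the lowest torpid library was above the highest other by a wide margin. Hps1, a subunit of a complex that builds lysosome-related organelles, stood at 55.4, 61.9, 52.7, 46.95, 54.6 and 57.3 CPM against 16.01 to 30.7. Wsb1, an adaptor that brings substrates to a ubiquitin ligase, was at 51.0, 40.4, 63.3, 54.6, 58.0 and 49.3 CPM against 4.39 to 26.1. All 3 had no overlap and ratios of 2.21, 2.14 and 2.27, and all 3 stayed in the set in each of the 36 repeats that leave out 1 library.

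Of the cytoskeleton and chromatin, Map4, a microtubule-associated protein, had a torpid median of 289 CPM (238 to 317) with no overlap with the others (83.3 to 219). Map4 left the set with group means, with totals free of ribosomal RNA and mitochondrial genes, and without torpid 1, 5 or 6. Kiaa0895l gave 9.03 to 16.1 CPM against 1.73 to 7.95, also with no overlap and a ratio of 2.06. H1-2, a linker histone, stood at 124, 116, 126, 140.3, 135 and 122 CPM. Its level was 139 in pre-hibernation 5 and at most 89.1 in any other library that was not torpid. Znf473, a zinc finger protein of histone messenger RNA processing, was at 10.6 to 14.0 CPM against 3.05 to 10.1. It met the rule in 30 of the 36 repeats that leave out 1 library, and not without the 3 rRNA-rich libraries. Beside Zfp36, which was set aside, it was the 1 of 223 Zfp and Znf genes to meet the rule, a list in which torpor was the lowest group for 120 genes (53.8%) and the highest for 27 (12.1%). H1-2 was the 1 histone gene on its list with 2 CPM or more.

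Several of the 81 are better known from other tissues. Exd1, known in mouse from the piRNA pathway of germ cells, stood at 32.8, 32.7, 31.1, 26.5, 33.3 and 34.2 CPM against 3.49 to 23.1. Msh4, of meiotic recombination, had a torpid range of 17.8 to 26.7 CPM against 5.26 to 15.4. Apobec4, of the family of cytidine deaminases, was at 24.1 to 29.9 CPM against 6.94 to 19.2, and Ccdc62 at 17.8 to 20.8 against 10.7 to 16.7. None of these 4 overlapped with other libraries. Low levels were found for the mitotic kinase Plk1 (3.04 CPM, ratio 2.36), the GTPase-activating protein Arhgap11a (5.19, 1.86), the oviduct glycoprotein Ovgp1 (6.61, 1.80), the muscle calcium pump Atp2a1 (2.41, 1.76), Lmntd1 (6.46, 1.65) and Fsd2 (7.54, 1.53), all with torpid libraries inside the range of the others. Abhd14b, an alpha/beta hydrolase, had a torpid median of 10.8 CPM and 5 of 6 libraries above all others.

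The torpid libraries of Lgi3, Pmch, Mfsd2a and Etnppl were spread widely, with coefficients of variation of 39.3%, 62.1%, 29.1% and 22.6%. Lgi3, a secreted leucine-rich repeat protein, stood at 382, 399, 386 and 338 CPM in torpid 1 to 4 and at 155 and 146 in torpid 5 and 6, while the others ran from 46.9 to 337 with a median of 194. Torpid 5 and 6 lay below that median and the other 4 above all 30. Pmch, the precursor of melanin-concentrating hormone, made by neurons of the lateral hypothalamus, was at 40.03, 20.97, 43.2, 92.1, 49.3 and 16.1 CPM, against 0.633 to 65.5 elsewhere. The other 15 neuropeptide genes of its list with 2 CPM or more did not meet the rule, and torpor was the lowest group for 7 of the 16. Summed neuron markers lay at 715 to 1157 CPM in torpor and 444 to 1719 elsewhere; their part in the level of Pmch was not tested.

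Mfsd2a, a transporter of lysophospholipids found in brain endothelium, was at 11.7, 16.3, 12.3, 15.7, 16.2 and 24.8 CPM against 2.33 to 19.9, with torpid 6 alone above all others. The 11 endothelial markers, which include it, summed to 94.9 to 181 CPM in torpor and 86.6 to 192 elsewhere. Etnppl, a phospho-lyase of ethanolamine phosphate enriched in astrocytes, was at 143, 94.2, 113, 160.5, 119 and 91.4 CPM against 15.3 to 118. Torpid 1, 4 and 5 were above all others. The 13 astrocyte markers summed to 5089 to 7052 CPM in torpor and 1818 to 7089 elsewhere, and 7 of them had their highest median in torpor. What part such cells have in the level of Etnppl was not tested.

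Of the 60 gene lists looked at, 17 held a gene of the set and 18 of the 37 named genes were on one. Beside those above, p53 targets (Gadd45a), the hypoxia response (Hif3a), TGF-beta and BMP signalling (Id1), Kruppel-like factors (Klf10) and cell cycle genes (Plk1) held 1 each. The torpid median was the highest for 7 of 23 p53 genes (30.4%), 6 of 20 hypoxia genes (30%) and 7 of 29 cell cycle genes (24.1%). It was the lowest for 38 of 66 chromatin modifiers (57.6%) and 22 of 39 genes of RNA polymerase II elongation (56.4%), lists with no gene in the set. Of all 14197 genes with 2 CPM or more in any group, it was the highest for 17.4% and the lowest for 26.7%. These shares are the base for the list counts given above as well.

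**Figure D3:**
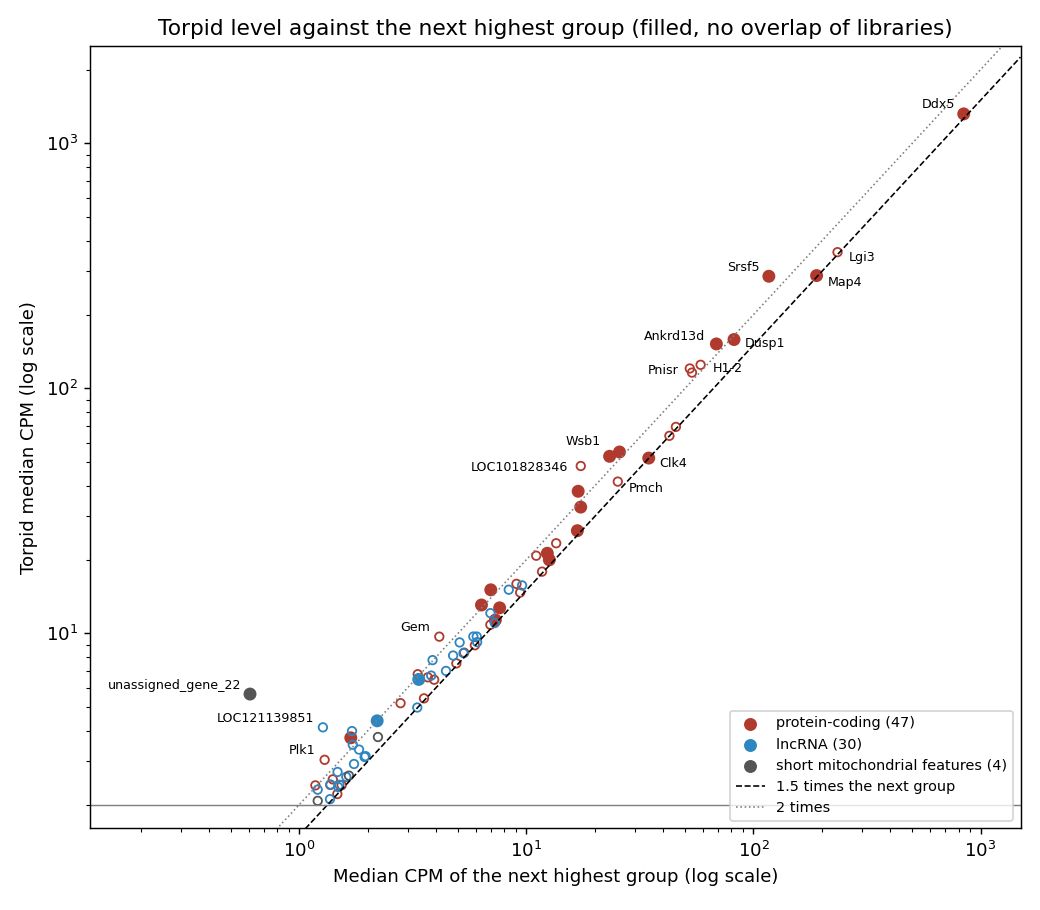
Torpid median against the median of the next highest group for the 81 genes, both in CPM on log scales, with lines at 1.5 and 2 times and at the level of 2 CPM. Filled points are the 21 genes with no overlap between torpid and other libraries, most of them protein-coding and at the higher levels, while lncRNA points crowd below 16 CPM.

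By annotation 47 of the 81 genes were protein-coding, 30 were long non-coding RNA genes (lncRNA) and 4 were short features absent from the gene table used. Of the 13541 genes with a torpid median of 2 CPM or more, 5.76% were lncRNA, against 37.04% of the 81. The same rule with another group as the highest gave 9 lncRNA of 89 genes for long photoperiod, 0 of 12 for pre-hibernation, 4 of 53 for late pre-hibernation, 0 of 5 for interbout euthermia and 3 of 41 for refractory, and for torpor, with set-aside genes included, 30 of 88. The share of all counts on lncRNA genes did not set torpor apart, at 0.92% to 1.24% in torpid and 0.82% to 2.14% in other libraries, with refractory 4 the highest.

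All 30 lncRNA genes had a LOC number in place of a name, and their torpid medians were low, with a median of 4.69 CPM against 17.9 for the protein-coding genes. Low counts carry more counting error, whose part in the lncRNA share was not tested. Both classes were also set side by side in the same broad bands of torpid median, a value that the rule used. Within a band their levels can still differ. From 2 to 10 CPM, 26 of 579 lncRNA genes (4.49%) and 18 of 3022 protein-coding genes (0.596%) met the rule, and from 10 to 100 CPM 4 of 194 (2.06%) and 26 of 7322 (0.355%). At 100 CPM or more it was met by 10 of 2402 protein-coding genes and 0 of 7 lncRNA genes. Torpid and other libraries did not overlap for 2 of the 30 lncRNA genes and for 18 of the 47 protein-coding ones. Those 2 were LOC121139274 (4.96 to 7.98 CPM against 0.850 to 4.61) and LOC121143671 (3.33 to 6.38 against 0.491 to 2.48).

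**Figure D4:**
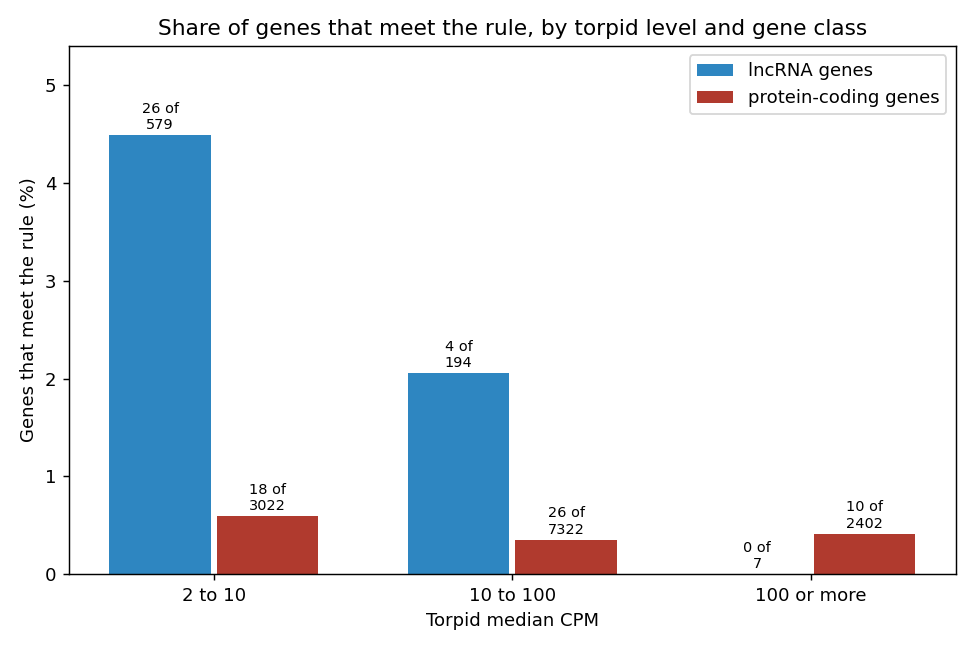
Percent of genes with a torpid median of 2 CPM or more that meet the rule, by torpid level and gene class, set-aside genes included, with counts above the bars and the axis from 0. The lncRNA bar is the higher from 2 to 10 CPM (4.49% against 0.596%) and from 10 to 100 CPM (2.06% against 0.355%).

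Because the authors' counting was unstranded, overlaps with other genes were looked up, over whole gene spans with introns included. An annotated gene overlapped 17 of the 30 lncRNA genes, on the opposite strand for 14, and 15 of the 47 protein-coding ones, on the opposite strand for 13. The share of all genes with such an overlap was not counted, so these counts have no base to be read against. LOC121143671 lies against Dbn1, LOC121136908 against Dyrk3 and LOC121143519 against Upf2. Read pairs that touched counted exons of both genes were left out, and other pairs were counted whichever strand they came from. Whether exons overlapped was not looked at. Among named genes, the spans of Srsf5, Plk1, Gem, H1-2, Atp2a1, Pmch, Gadd45a, Apobec4, Znf473, Lgi3, Id1 and Map4 were overlapped as well. LOC121143725, a protein-coding gene with no informative name, overlaps on the same strand Crem, a transcription factor gene of cyclic AMP signalling. It stood at 13.8, 9.72, 10.7, 12.8, 12.6 and 16.2 CPM in torpor with no overlap (1.36 to 9.11 elsewhere). Crem itself was below another group in torpor, with a ratio of 0.66.

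In length the protein-coding genes of the set were close to other genes over exons and shorter over the genome. Their exonic length, the number of bases over which counts were taken, had a median of 2819 bases (quartiles 1867 and 3739), against 2992 bases (1858 and 4725) for all protein-coding genes of 2 CPM or more. Their genomic span had a median of 10995 bases against 23694, and introns made up a median of 76.1% of the span against 87.6%. They had a median of 9 exon blocks against 10. Exonic lengths of the lncRNA genes had a median of 2137 bases against 1616 for the 780 lncRNA genes of that level, and spans of 5576 against 6301. Over all 81 the median exonic length was 2353 bases, from 67 to 6583.

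Length was not tested, because members were chosen by level. Short genes among the named ones were H1-2 (1534 bases in 1 exon block), Pmch (733 bases), Id1 (946) and Dusp1 (1904), and long ones Hif3a (6583), Phka1 (6522) and Fsd2 (6416). Srsf5 spans 4644 bases and Ddx5 6994, whereas Map4 spans 122929 and Phka1 110129. Across the 81 genes Spearman's rank correlation of exonic length with the ratio was -0.09, and -0.19 among the 47 protein-coding ones, as a description over genes that share the same libraries.

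**Figure D5:**
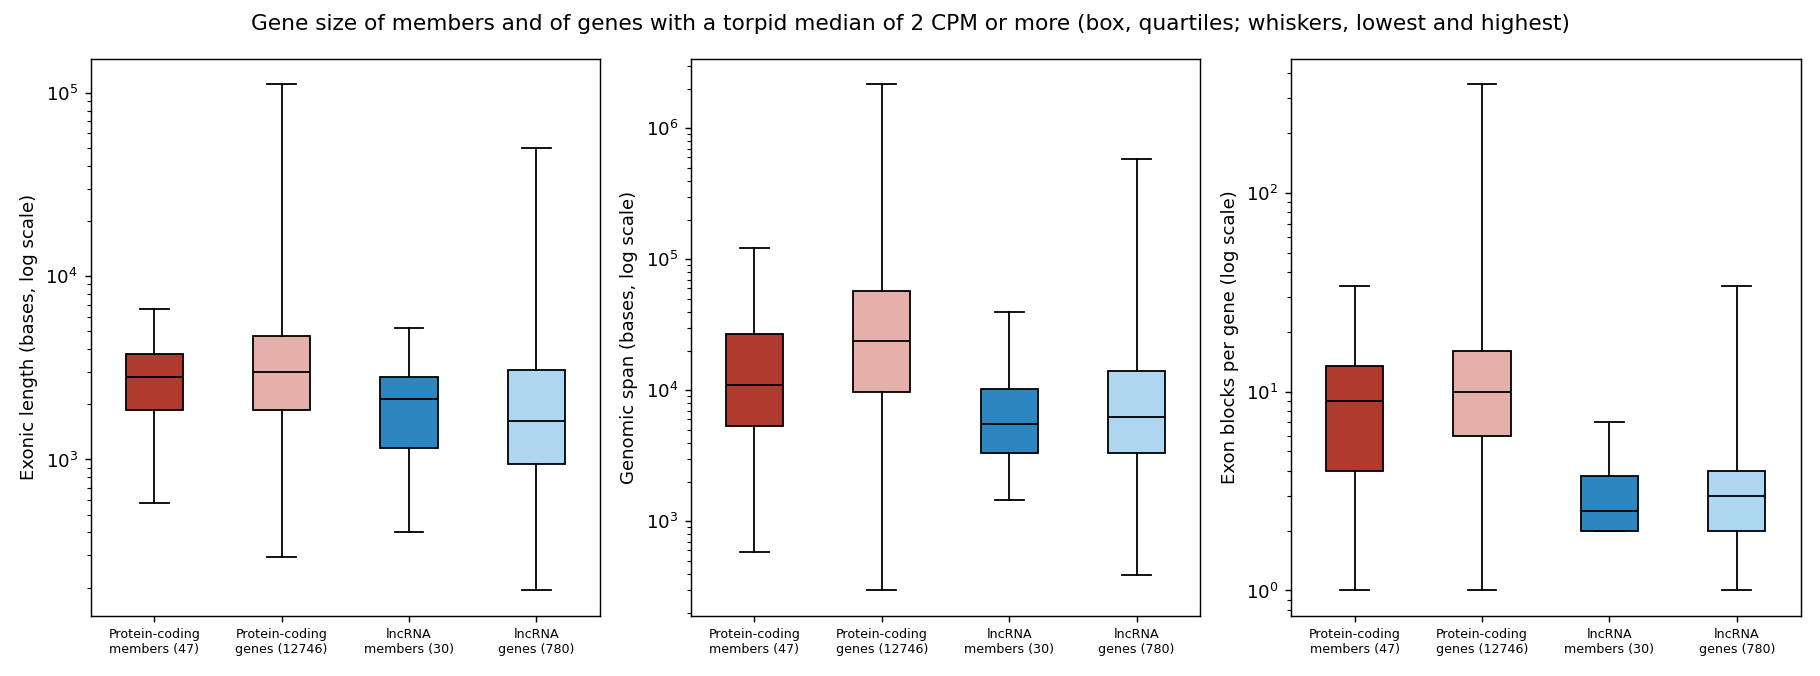
Exonic length, genomic span and number of exon blocks (log scales) of the 47 protein-coding and 30 lncRNA genes of the set beside all genes of each class with a torpid median of 2 CPM or more; boxes give quartiles with a line at the median and whiskers the lowest and highest gene. The protein-coding genes of the set differ most from their class in span, with medians of 10995 and 23694 bases.

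Most of the set was expressed at a low level. The median torpid level was 8.93 CPM, against 26.5 for all genes of 2 CPM or more, with 46 genes under 10 CPM and 9 at 100 CPM or more. Per kilobase of exon, the scale on which genes can be set against each other, the median torpid level was 5.27 CPM per kb against 8.18. Ddx5 was highest at 571 CPM per kb, followed by Srsf5 (157), Lgi3 (113), Dusp1 (83.1), H1-2 (81.4), Map4 (78.2), Ankrd13d (69.6), Etnppl (65.4) and Pmch (56.8) among named genes. Spread between torpid animals, as the coefficient of variation, had a median of 20.3% over the 81 genes and 14.3% over all genes of that level, and ran from 5.23% (Ankrd13d) to 62.1% (Pmch).

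By position, 4 members of the set with no informative name lay on the contig of H1-2 in assembly BCM_Maur_2.0 within 971 kb of it. H1-2 spans bases 46127719 to 46129252 on the plus strand. LOC101828346 (46019376 to 46038020, minus strand), LOC121143562 (46009888 to 46011533) and LOC121143555 (45995991 to 45996572) lay 89.7, 116 and 131 kb from it, and LOC101824849 the farthest of them. LOC101828346 had the largest ratio of any protein-coding gene of the set, at 46.6, 60.8, 53.6, 49.8, 45.6 and 37.96 CPM in torpor and a ratio of 2.78. Like H1-2, it was high in the rRNA-rich libraries (65.0 in pre-hibernation 5, 51.2 in refractory 4, 39.1 in interbout 6) and at 11.7 to 23.0 CPM in the other 27. LOC121143555 gave 2.91 to 4.96 CPM in torpor with no overlap (0.388 to 2.34). The other H1 genes of that contig, H1-1, H1-5 and H1-6, stood below 2 CPM in every group and did not meet the rule.

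LOC121144390 lies 6.27 kb from Egr1 on the opposite strand, overlaps Kdm3b and Reep2, and gave 2.10 to 6.38 CPM in torpor against 0.388 to 4.29 elsewhere (ratio 1.51). No named gene of the set lay within 10 kb of another member.

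The largest ratio of all, 9.32, belonged to unassigned_gene_22, a feature of 69 bases at 14052 to 14120 of the mitochondrial contig, minus strand, between ND6 and CYTB. It stood at 5.75, 8.06, 5.55, 5.34, 6.73 and 5.18 CPM in torpor, at 0.165 to 1.01 in the 27 other libraries that were not rRNA-rich, and at 2.51, 2.98 and 4.84 in pre-hibernation 5, interbout 6 and refractory 4, so no other library reached the torpid range. A further 3 such features of 67 to 69 bases, unassigned_gene_14, unassigned_gene_18 and unassigned_gene_19, had torpid medians of 3.77, 2.62 and 2.07 CPM. Each was above its torpid median in all 3 rRNA-rich libraries. Refractory 4 held 12.8, 11.6 and 11.4 CPM, interbout 6 held 6.80, 10.1 and 3.97, and pre-hibernation 5 held 4.71, 6.12 and 2.51. Mitochondrial genes took 18.3%, 14.3% and 11.8% of counts in these libraries, against 2.10% to 3.18% in torpid ones. The part of that share in the levels was not tested. Fragments that touched a neighbouring gene as well were not assigned to these short features. Beside unassigned_gene_22, CYTB had a torpid median of 5613 CPM and a ratio of 0.74, and ND6 a median of 559 CPM and a ratio of 0.76. Beside unassigned_gene_18, ND3 had a median of 44.7 CPM and a ratio of 1.16, and ND4L 429 CPM and 0.90.

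The groups without torpor were also compared with each other. The rule held all 5 of their medians below the torpid one, so a gene that came near its torpid level in any of them is not in the set, and the tests describe the 81 genes within that limit. Each group was set against the one before it in the order long photoperiod, pre-hibernation, late pre-hibernation and interbout euthermia (n = 6 each), by edgeR's quasi-likelihood test with Benjamini-Hochberg adjustment over all 17926 genes and a threshold of 0.05. In the first, 1 of the 81 genes passed, 1.23% of them against 2.29% of all genes (411, with 1.61% higher and 0.681% lower). In the second and the third, 0 of the 81 and 0 of all genes (0%) passed, with 1 and 2 of the 81 and 739 and 1104 of all genes at an unadjusted p under 0.05. DESeq2 called 4 and 32 of all genes in these steps and limma voom 10 and 550, with 0 of the 81 by either in the second and 0 and 1 in the third. The median log2 fold changes over the 81 genes were 0.09, -0.04 and 0.13, beside 0.01, -0.01 and 0.01 over all genes. Pre-hibernation and long photoperiod animals also differed in age (4 and 8 months), so age, day length and cold cannot be told apart in that step.

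The comparison of refractory with interbout animals called 2 of the 81 genes (2.47%), both lower, against 628 of all genes (3.5%, with 2.04% higher and 1.47% lower). Among these was LOC121143671, a lncRNA gene opposite Dbn1. Interbout libraries held 1.38 to 2.48 CPM with a median of 2.20 and refractory ones 0.491 to 1.36 with a median of 0.837, and these groups did not overlap. The log2 fold change was -1.25, with a standard error of 0.34 derived from the test statistic (edgeR adjusted p = 0.0322). That call did not pass without interbout 3 (adjusted p = 0.0631) or 4 (0.0553), or refractory 2 (0.0582) or 6 (0.0542), by the same test. Interbout and refractory animals also differed in age (6 and 8 months) and in weeks at 10 h of light and 8 °C (8 to 12 and about 20). Age, weeks and state cannot be told apart in that comparison. Refractory against long photoperiod called 0 of the 81 genes and 59 of all (0.329%, with 0.0781% higher and 0.251% lower), with 13 of the 81 (16.05%) and 2327 of all genes (12.98%) at an unadjusted p under 0.05. None of the 81 passed with DESeq2 or limma voom, which called 1.84% and 1.04% of all genes.

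Without the 3 rRNA-rich libraries, the step from long photoperiod to pre-hibernation called 4 of the 81 genes, beside 1141 of 17903 genes (6.37%). Among them were LOC121143725 (log2 fold change 0.54) and Kiaa0895l (0.55), which were higher, and Apobec4 (-0.43), which was lower. Refractory against interbout euthermia then called 4 as well, all lower, beside 540 of all genes (3.02%), among them LOC121143671 (-1.39), LOC121139851 (-2.10) and H1-2 (-0.45).

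At the ratio of 1.5 genes just inside the rule were Clk4 (1.502) and LOC101824849 (1.502), and nearest outside were Vxn (1.499, 3.38 against 2.26 CPM), LOC121139972 (1.498) and LOC101835534 (1.489). At the level of 2 CPM the nearest inside were unassigned_gene_19 (2.07), LOC121143950 (2.10) and LOC101824849 (2.21), and nearest outside were LOC121134319 (1.97), LOC106021364 (1.95) and LOC101841840 (1.77). Membership of genes so near to a limit rests on differences smaller than the spread between libraries. With each of the 36 libraries left out in turn, 51 of the 81 genes met the rule every time.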

How the data were processed

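The authors deposited 1 table of raw counts per library, and these were the starting point. They counted read pairs over RefSeq exons (assembly BCM_Maur_2.0) with featureCounts 2.0.1, ignoring strand and leaving out pairs that touch 2 genes, per the file headers. Alignment settings were not given in the sources used here. RNA integrity numbers lay between 7 and 9, per the labels.

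CPM used library totals over all genes. Members and the 60 gene lists were chosen with earlier results of these data known. Named genes are the members with an informative name that lead by ratio or level per kb, are on a list, lie at a limit of the rule or were called.

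Counts were filtered with filterByExpr (17926 genes), TMM-scaled and tested by robust quasi-likelihood over the 36 libraries together (edgeR 4.0.16, limma 3.58.1, DESeq2 1.42.0, R 4.3.3; Python 3.11.15, pandas 2.3.3, matplotlib 3.10.9). Scripts were tested on simulated data. Animals differ between libraries. Some results are not reported here.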

Additional observations from a re-analysis of the deposited data

Results flagged for a closer look

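In 3 of the 81 genes, 1 torpid library stood apart from the other 5 by a gap above Dixon's 95% critical value. LOC121138846 was at 13.5 CPM in torpid 4, with the next library at 9.36. Mfsd2a was at 24.8 CPM in torpid 6, with the next at 16.3. Hif3a was at 15.0 CPM in torpid 6, with the next at 10.7. Chance gives this in about 1 in 20 groups, and 81 were looked at.

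Taken as the median over the 81 genes of log2 CPM over the median of the 30 other libraries, torpid 2 stood apart as the lowest of its group by the same measure, at 0.80 with the next at 0.97. Torpid 2 was the lowest of the 6 torpid libraries for 39 of the 81 genes, while torpid 4 was the highest for 25 and torpid 6 for 22. Without torpid 2 the rule was met by 96 genes, and by 31 of these with no overlap.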

How the results depend on the processing

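The rule gave 81 genes, and 89 with TMM-scaled totals (78 shared), 82 with group means (61 shared), 72 with totals free of ribosomal RNA and mitochondrial genes (71 shared), 75 without the 3 rRNA-rich libraries (68 shared), and 76 to 96 with 1 library left out. The median ratio of 1.72 was 1.67 with group means, 1.74 with totals free of ribosomal RNA and mitochondrial genes, and 1.66 to 1.78 with 1 library left out. The median exonic length of 2353 bases was 2199.5 with group means and 2164 to 2367.5 with 1 library left out. The count of 21 genes with no overlap was 9 with those totals, 19 with those totals and no refractory 4 (a setting chosen after seeing the data), and 18 to 31 with 1 library left out. The same 45 genes met the rule in every setting.

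Of the 81 genes, pre-hibernation against long photoperiod called 2 by DESeq2 (2.47%, beside 3.55% of all genes), 6 by limma voom (7.41%, beside 11.7%), 2 with a filter of 1 CPM in 6 libraries (2.47%, beside 2.68%), 4 without the rRNA-rich libraries (4.94%, beside 6.37%) and 1 to 2 with 1 library left out (2 without pre-hibernation 1). Late pre-hibernation to interbout euthermia called 1 by limma voom (1.23%, beside 3.07%) and 0 with each library left out. Refractory against interbout euthermia called 7 by limma voom (8.64%, beside 6.53%), 4 with no filter beyond 1 count (4.94%, beside 6.45%), 4 without the rRNA-rich libraries (4.94%, beside 3.02%), and 1 to 4 with 1 library left out (1 without interbout 3 or 4, 4 without interbout 6). With the replicate number as a block it called 1 (1.23%, beside 1.22%), as LOC121143671 had an adjusted p of 0.0599 by edgeR. The block changed no other call among the 81. Over all genes it called 219 in place of 628 here, 359 in place of 411 for pre-hibernation against long photoperiod, and 46 in place of 59 for refractory against long photoperiod. The numbers did not pair animals (deviations of 90 same-numbered pairs of libraries correlated at -0.34 to 0.48, median 0.01, and 5 of 36 libraries correlated best with their own number). The other 2 comparisons called 0 with each library left out and by each tool. Long photoperiod 1 to 3 or 4 to 6 alone, added after seeing the data, changed no call among the 81. Over all genes, pre-hibernation against long photoperiod then called 108 and 111 in place of 411, and refractory against long photoperiod 40 and 6 in place of 59. Day length and cold differ together between long photoperiod and all other groups and cannot be told apart, nor can age, by the labels, except in refractory animals. For genes at 2 CPM the fold rests on few counts.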
